A study of Mus musculus with 27 samples.

Results

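Loss of Dicer was followed in whole mouse embryonic stem cells by setting the 3 libraries taken 10 days after its induction against the 3 libraries taken at day 0, chosen by their labels from the 27 libraries of the series. The day 10 cells were DTCM23/49 XY embryonic stem cells whose Dicer allele is conditional, cultured with 4-hydroxytamoxifen at 800 nM to delete the RNase III domain, after which Dicer-deficient colonies were selected and expanded in serum with leukemia inhibitory factor. The day 0 cells were the same conditional mutant cells, labelled as taken before the loss was induced, so both groups carry the conditional allele. The protocol names an ethanol control, but no later library is labelled as one. Loss of Dicer cannot be told apart from tamoxifen, time, colony selection, expansion or the difference in library depth given below. The libraries were directional, made from polyadenylated RNA and read in pairs. Nothing says that the 3 libraries of a group came from separate cultures, so the p-values rest on a spread between libraries that may be technical. Of the 38123 gene models in the files, 15991 reached a mean of 0.5 FPKM (fragments per kilobase of transcript, scaled to the mapped total) in at least 1 whole cell group and were tested. Among these, 12371 protein-coding genes and 1122 long non-coding RNA (lncRNA) genes had no near-identical copy elsewhere, and the account below is of these genes.

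Dicer cuts hairpin precursors into mature microRNAs of about 22 bases, which guide Argonaute proteins to sites in mRNAs, most of them in 3′ untranslated regions (UTRs) that pair with the seed, bases 2 to 8 of the microRNA. In mouse embryonic stem cells the most abundant microRNAs come from the miR-290 cluster, whose seed is shared by miR-302 and offset by 1 base from that of the miR-17 family. Their known targets include inhibitors of the cell cycle and Lefty proteins, antagonists of Nodal. The mature sequences below are from RefSeq (GRCm38), with the seed in capitals, and show which letters were looked for. MicroRNAs themselves were not measured in these libraries. miR-294 and miR-302b lie at chr7:3220691-3220712 and chr3:127545275-127545297 on the plus strand, and miR-17 at chr14:115043684-115043706 on the plus strand.
miR-294-3p: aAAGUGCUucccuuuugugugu
miR-302b-3p: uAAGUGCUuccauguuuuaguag
miR-17-5p: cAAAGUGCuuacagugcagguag
The 8-mer site that pairs with the miR-290/miR-302 seed is AGCACTTA, read on the transcript strand alone. It shares 6 letters with GCACTTTA, the 8-mer of the miR-17 family. One such site each, shown in capitals with its flanks from the GENCODE M21 transcripts (GRCm38), stood in the longest 3′UTR of the genes below. They are of the miR-290/miR-302 target list and rose at day 10. Not every risen member with such a site is shown, and some risen members of that list held none.
Lats2 (chromosome 14): tacagtatggaaagAGCACTTAttt
Cdkn1a (chromosome 17): accgtgggtgtcaaAGCACTTAgtg
Tgfbr2 (chromosome 9): atatcaaaacctaaAGCACTTAttt
Irf2 (chromosome 8): gcaccttatcttgaAGCACTTAcaa
Rbl2 (chromosome 8): gtatttttcaataaAGCACTTAtaa
Lefty1 (chromosome 1): tgcactgtatgcgaAGCACTTAcat

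Depth differed between the groups. The steps between low FPKM values put day 10 libraries at 0.742 to 0.966 times the depth of the first day 4 library, and day 0 libraries at 3.05 to 3.61 times, so low genes were measured less closely at day 10. Whole cell libraries labelled days 4, 8 and 12 lay at 0.722 to 1.13 times, so day 0 was apart in depth from every later whole cell group. Between 12940 and 12990 genes reached 1 FPKM in day 10 libraries and between 12230 and 12367 in day 0 libraries. Libraries of a group were alike (correlations across tested genes of 0.980 to 0.983 at day 10 and 0.989 to 0.993 at day 0). Dicer1 itself (chr12:104687742-104751952, minus strand, GRCm38 as for all genes here) had 1.895, 1.898 and 1.68 FPKM in day 10 cells, against 15.01, 16.02 and 17.9 FPKM in day 0 cells, an overlap-free difference in the direction of the labels (log2 change -2.85 ± 0.16 (SE), adjusted p = 3.43e-08). In the whole cell libraries labelled day 12 its level was 14.6 ± 1.77 FPKM (mean ± SD, n = 3), which goes against that label, and without those libraries in the shared fit the calls described below came to 4192 higher and 2337 lower genes, 3366 and 1911 protein-coding genes, and 164 and 116 lncRNA genes. Gene models that were left out moved too: of 1034 pseudogenes tested, 502 were higher and 54 lower, and of 447 protein-coding genes with near-identical copies, 65 were higher and 185 lower. How reads with several matches were assigned is not given in the sources used here, and its part in these differences was not tested.

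Transcripts moved in both directions at day 10, with more rises than falls as deposited and the reverse after quantile normalization. By limma on log2(FPKM + 0.5) with Benjamini-Hochberg adjustment at 0.05, 4427 genes were higher (27.7%) and 2560 lower (16%), together 43.7% of all genes tested, with a median log2 change of 0.09. Of the 12371 protein-coding genes, 3573 rose and 2101 fell, and 1017 rose and 303 fell by at least 1 on the log2 scale. Of the 1122 lncRNA genes, 173 rose and 132 fell, 76 and 39 of them by at least 1. The balance depends on the scaling: quantile normalization moved the median of all genes to -0.08, at which the split was 3320 higher and 4150 lower genes, 2619 and 3493 protein-coding genes, and 111 and 255 lncRNA genes. Median-of-ratios scaling kept more rises than falls, with 4062 and 3005 genes, 3254 and 2494 protein-coding genes, and 161 and 158 lncRNA genes. Shares of a list below are therefore to be read against the shares of all genes on the same scale. Counts of a list cover all its tested members, and genes with near-identical copies are not named among them. For 10205 of the 15991 genes tested, the day 10 and day 0 libraries did not overlap. Genes named for their size of change were taken from these, so a lack of overlap was required of them and is no further result. In these bulk libraries, a change in the number of cells of a type and a change in RNA per cell cannot be told apart.

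The largest rises among protein-coding genes were of secreted and surface proteins and of cytoskeletal and lipid-handling genes, a description of the 10 genes that the naming rule picked rather than a test of those classes. Olfr613, of the odorant receptor family (chr7:103548074-103555506, plus strand), had 25.03, 25.8 and 23.7 FPKM in day 10 cells, against 1.39, 0.677 and 0.647 FPKM in day 0 cells (log2 change 4.21 ± 0.21 (SE), adjusted p = 9.97e-09). Msln encodes mesothelin, a surface glycoprotein of mesothelial cells (chr17:25748613-25754378, minus strand), and had 23.97, 20.03 and 21.7 FPKM in day 10 cells, against 0.882, 0.833 and 0.605 FPKM in day 0 cells (log2 change 4.14 ± 0.17 (SE), adjusted p = 2.05e-09). Thbs1, for the matrix protein thrombospondin 1, had 69.7, 70.8 and 66.6 FPKM in day 10 cells, against 3.05, 6.08 and 5.43 FPKM in day 0 cells (log2 change 3.75 ± 0.34 (SE), adjusted p = 1.77e-06). All day 10 values of these 3 genes lay far above all day 0 values, and within day 10 the libraries were close. Hsd3b2, of the 3β-hydroxysteroid dehydrogenase family, had 8.999, 11.4 and 9.23 FPKM in day 10 cells, against 0.3803, 0.307 and 0.194 FPKM in day 0 cells (log2 change 3.71 ± 0.13 (SE), adjusted p = 6.63e-10). Csf1, the growth factor of macrophages, had 21.4, 20.8 and 21.5 FPKM in day 10 cells, against 0.9004, 1.51 and 1.52 FPKM in day 0 cells (log2 change 3.61 ± 0.23 (SE), adjusted p = 9.67e-08). Pla2g7, a secreted phospholipase that inactivates platelet-activating factor, had 10.8, 9.51 and 9.59 FPKM in day 10 cells, against 0.462, 0.389 and 0.393 FPKM in day 0 cells (log2 change 3.52 ± 0.12 (SE), adjusted p = 6.88e-10). For these genes too, the day 10 libraries were the high ones and the groups stood clear of each other. The remaining 4 were Anxa1 (log2 change 3.32), a calcium-dependent phospholipid-binding protein, the serpin Serpinb9b (3.31), Aard (3.25) and Acta2 (3.18), the actin of smooth muscle, which was the most abundant of the 10 with 171, 172 and 178 FPKM in day 10 cells, against 14.7, 21.6 and 20.9 FPKM in day 0 cells. Hsd3b2 has looser matches to other transcripts (at least 90% identity over 30% of its length), and Hsd3b2, Pla2g7, Thbs1 and Serpinb9b share exonic bases with another gene, so reads of these cannot be assigned with certainty.

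**Figure D1:**
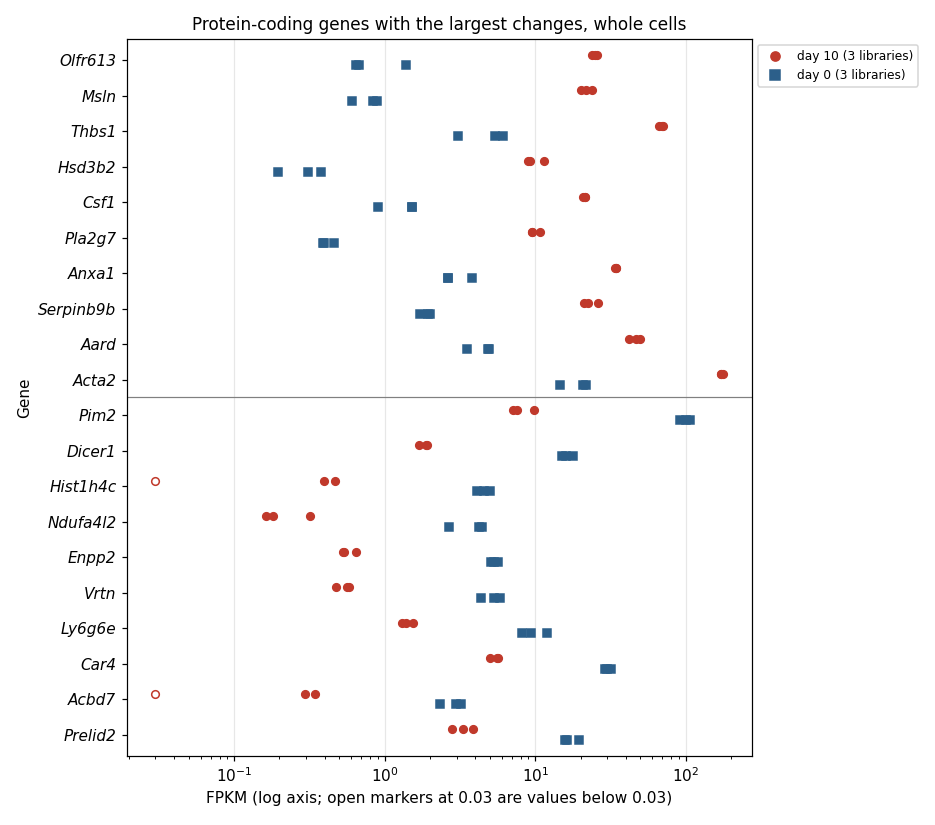
FPKM (log axis) of the 10 protein-coding genes with the largest rise (above the line) and the 10 with the largest fall (below it) in each of the 3 day 10 libraries (circles) and the 3 day 0 libraries (squares). The groups do not overlap for any of the 20 genes, which the naming rule required, and Pim2 spans 7.11 to 9.74 FPKM at day 10 against 91.4 to 107 FPKM at day 0.

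Falls were led by Pim2, a serine/threonine kinase that promotes survival and is induced by Stat signalling (chrX:7878262-7883432, plus strand), which had 9.74, 7.61 and 7.11 FPKM in day 10 cells, against 91.4, 107 and 101 FPKM in day 0 cells (log2 change -3.54 ± 0.11 (SE), adjusted p = 3.27e-10). It was the largest fall among named protein-coding genes, larger than that of Dicer1, and none of its day 10 values came near day 0, although Pim2 has looser matches to 2 other genes. Ndufa4l2, a mitochondrial protein known to respond to hypoxia, had 0.163, 0.319 and 0.181 FPKM in day 10 cells, against 4.44, 2.68 and 4.25 FPKM in day 0 cells (log2 change -2.55 ± 0.28 (SE), adjusted p = 8.62e-06). Enpp2 encodes autotaxin, the secreted enzyme that makes lysophosphatidic acid, and had 0.647, 0.528 and 0.5403 FPKM in day 10 cells, against 5.11, 5.63 and 5.299 FPKM in day 0 cells (log2 change -2.45 ± 0.13 (SE), adjusted p = 1.59e-08). Car4, a carbonic anhydrase of the cell surface, had 5.64, 5.04 and 5.57 FPKM in day 10 cells, against 31.7, 28.98 and 29.97 FPKM in day 0 cells (log2 change -2.38 ± 0.14 (SE), adjusted p = 3.55e-08). In each of these the day 10 libraries were all low. Vrtn, known from pigs for its bearing on vertebral number, changed by -2.44, the Ly6 family gene Ly6g6e by -2.43, the acyl-CoA binding gene Acbd7 by -2.26 and Prelid2 by -2.21. Hist1h4c, a replication-dependent histone H4 gene, had 0, 0.464 and 0.396 FPKM in day 10 cells, against 4.53, 5.02 and 4.099 FPKM in day 0 cells (log2 change -2.74 ± 0.45 (SE), adjusted p = 0.000309). Replication-dependent histone mRNAs lack a poly(A) tail and these libraries were poly(A)-selected, and Hist1h4c has looser matches to other histone transcripts, so its values are uncertain.

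Listed targets of the miR-290/miR-302 seed were higher in most cases. Of 15 tested, 13 rose and 0 fell, with a median log2 change of 1.24, against 27.7% higher and a median of 0.09 over all genes. Lats2, the Hippo pathway kinase that restrains Yap, had 8.63, 8.61 and 8.25 FPKM in day 10 cells, against 0.549, 0.686 and 0.729 FPKM in day 0 cells (log2 change 2.96 ± 0.12 (SE), adjusted p = 2.14e-09). Tgfbr2, the type II receptor of TGFβ, had 4.58, 5.71 and 4.93 FPKM in day 10 cells, against 0.382, 0.488 and 0.445 FPKM in day 0 cells (log2 change 2.57 ± 0.13 (SE), adjusted p = 1.67e-08). Cdkn1a, the p21 inhibitor of cyclin-dependent kinases, had 129, 132 and 138 FPKM in day 10 cells, against 28.7, 23.6 and 25.7 FPKM in day 0 cells (log2 change 2.34 ± 0.15 (SE), adjusted p = 1.21e-07). In all 3, every day 10 library was above every day 0 library, as the naming rule required. The lowest starting levels, in Lats2 and Tgfbr2, went with the larger log2 changes. The interferon regulatory factor Irf2 changed by 2.08 and had 1 site of 8 letters. The members that missed the threshold were the F-box gene Fbxl5 (0.13) and Lefty2 (-0.28), each with an 8-mer in its 3′UTR. Casp2, Ei24, Rhoc, Wee1, Arid4b and Akt1 rose without an 8-mer for this seed there, with sites of 7 letters alone. Tgfbr2, Rbl2, Rhoc and Wee1 each held an 8-mer for the miR-17 seed. With quantile normalization 11 rose and 1 fell.

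Across all protein-coding genes, those with an 8-mer for the miR-290/miR-302 seed in their longest 3′UTR had larger log2 changes than those without. Of 12305 genes with a 3′UTR, 429 (3.49%) held at least 1 such site, and their median log2 change was 0.35, against 0.08 for the 11876 without. Among genes with a site 211 (49.2%) rose and 27 (6.29%) fell, against 28.2% and 17.4% of genes without. With 2 or more sites the median was 0.53 (18 genes), against 0.34 with 1 (411 genes). The miR-17 seed gave 0.40 with a site (551 genes), but its order was the other way, with 0.35 for 2 or more sites (25 genes) and 0.41 for 1 (526 genes). The miR-25/92 seed gave 0.33 (338 genes). Smaller medians came with seeds of miR-130/miR-301 (0.25), miR-21 (0.23), miR-19 (0.21), miR-15/16 (0.17), miR-26 (0.17) and let-7 (0.11). The seeds of miR-9, miR-142-3p and miR-223, families known from brain and blood cells, gave 0.21, 0.20 and 0.17, as high as several of the others.

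Genes with long transcripts also had higher changes. With protein-coding transcripts in 5 length classes of like size, the median log2 change was -0.11 in the shortest class, then 0.03, 0.12 and 0.16, and 0.19 in the longest class. Sites are more frequent in long 3′UTRs, so the medians were also taken within 3 classes of 3′UTR length. With and without a miR-290/miR-302 site they were 0.56 and -0.03 in the shortest class (25 genes with a site), 0.36 and 0.08 in the middle class (99 genes) and 0.31 and 0.17 in the longest class (305 genes). The other seeds varied in the same classes. In the longest class, let-7 gave 0.11 with a site and 0.18 without, and miR-223 gave 0.16 and 0.18, but miR-9 gave 0.26 and 0.17. In the shortest class miR-223 gave 0.36 and -0.03 (28 genes with a site). A site is a match of letters and no evidence that the gene is bound. Among lncRNA transcripts, the 43 with the miR-290/miR-302 8-mer had a median of -0.02 and the others 0.01.

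**Figure D2:**
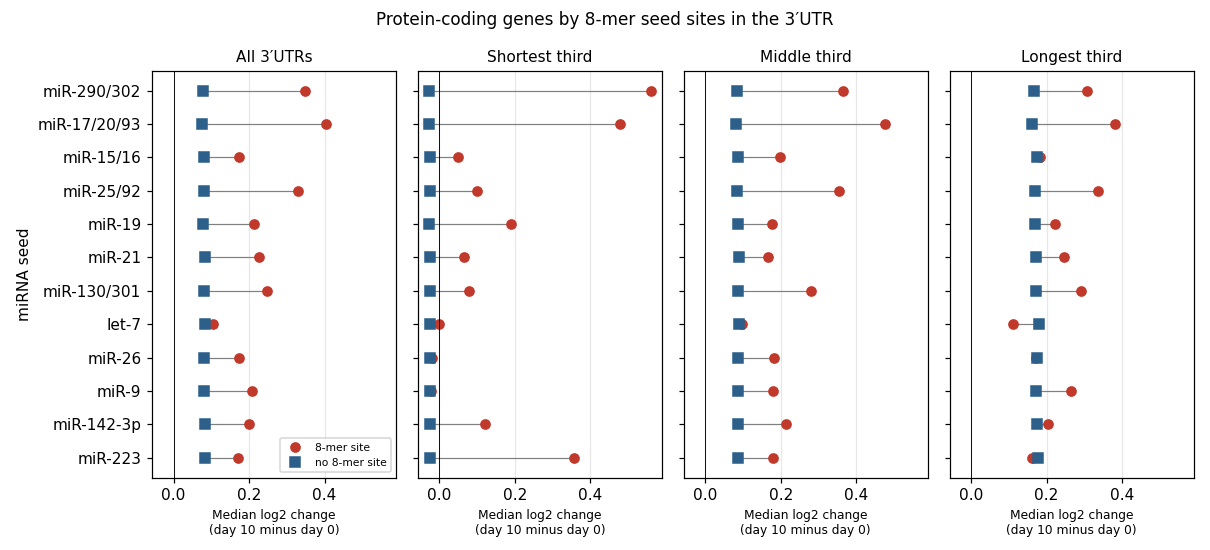
Median log2 change (day 10 minus day 0) of protein-coding genes with at least 1 8-mer site in the 3′UTR (circles) and with none (squares), for 12 microRNA seeds, over all genes and within 3 classes of 3′UTR length. For the miR-290/miR-302 seed the medians over all genes are 0.35 with a site and 0.08 without, and in the longest class 0.31 and 0.17.

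As deposited, the microRNA machinery list stood near all genes in its counts. Of 16 tested genes, 5 rose and 2 fell (median 0.09), against 27.7% and 16% of all genes, whose median was also 0.09. Quantile normalization gave 2 and 3, and leaving out any library but the second of day 0 gave 3 and 2. Tnrc6a, a GW182 scaffold that links Argonaute to mRNA decay, had 31.4, 35.7 and 34.9 FPKM in day 10 cells, against 11.4, 9.66 and 10.6 FPKM in day 0 cells (log2 change 1.65 ± 0.11 (SE), adjusted p = 1.35e-07). Ago1, an Argonaute protein, had 22.6, 26.03 and 27.2 FPKM in day 10 cells, against 9.09, 10.4 and 10.9 FPKM in day 0 cells (log2 change 1.28 ± 0.24 (SE), adjusted p = 0.00072). Both stood higher in every day 10 library. The RNA-binding protein Lin28a, which blocks maturation of let-7, had 32.6, 28.4 and 33.8 FPKM in day 10 cells, against 100.5, 107 and 104 FPKM in day 0 cells (log2 change -1.70 ± 0.07 (SE), adjusted p = 3.1e-09), low in every day 10 library. The processing genes Drosha (0.09) and Xpo5 (-0.06) and the Argonaute gene Ago2 (0.10) did not pass the test.

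Most genes of the contractile cytoskeleton rose. Of 28 actin and contractile genes, 24 rose and 0 fell, with a median log2 change of 1.10. Vim, the intermediate filament protein vimentin, had 504, 520.3 and 533 FPKM in day 10 cells, against 74.5, 83.3 and 88.2 FPKM in day 0 cells (log2 change 2.66 ± 0.11 (SE), adjusted p = 2.05e-09). Every day 10 library held several times the FPKM of any day 0 library. The LIM domain protein gene Fhl2 changed by 2.34 and Cald1, for caldesmon, by 2.23. Myh9 (0.80), Flna (0.50), Srf (0.05) and Lima1 (-0.14) missed the threshold. Annexin and S100 genes, calcium-binding proteins that act at membranes and the cytoskeleton, showed 11 of 17 risen and 0 fallen (median 0.88). Quantile normalization gave 8 and 0 (median 0.65). Anxa1 had 33.96, 34.4 and 34.3 FPKM in day 10 cells, against 2.62, 3.78 and 2.63 FPKM in day 0 cells, so the groups were well apart. Anxa5 (2.10), Anxa3 (1.94) and Anxa2 (1.93) followed.

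Of 18 listed Yap and Tead target genes, 17 rose and 0 fell, with a median of 1.35, and the same counts under quantile normalization. Yap and Taz are transcriptional coactivators restrained by Lats kinases. F3, the tissue factor that starts blood clotting, had 79.8, 80.1 and 69.8 FPKM in day 10 cells, against 7.22, 10.9 and 8.11 FPKM in day 0 cells (log2 change 3.08 ± 0.12 (SE), adjusted p = 1.93e-09). Axl, a receptor tyrosine kinase, had 11.2, 11.4 and 10.4 FPKM in day 10 cells, against 1.27, 1.496 and 1.58 FPKM in day 0 cells (log2 change 2.56 ± 0.19 (SE), adjusted p = 2.87e-07). Both were higher in all day 10 libraries, as was Tgfb2 (2.10), a TGFβ ligand. Thbs1, described above, belongs to the same list. Of 18 TGFβ and Nodal target genes, 13 rose and 0 fell (median 0.63), and quantile normalization gave 12 and 3. Pmepa1 (1.97) and the inhibitory Smad6 (1.74) restrain TGFβ or BMP signalling, and Tgfbi (1.57) is a matrix protein. Lefty1 and Lefty2, targets of both Nodal and the miR-290/miR-302 seed, were at 0.61, which passed, and -0.28, which did not.

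Matrix and adhesion genes rose more often than they fell. In the extracellular matrix list 19 of 30 rose and 1 fell (median 0.74). Lox, the enzyme that crosslinks collagen and elastin, had 5.95, 5.18 and 4.88 FPKM in day 10 cells, against 0.147, 0.385 and 0.2303 FPKM in day 0 cells (log2 change 2.96 ± 0.16 (SE), adjusted p = 2.36e-08). Sparc, a collagen-binding matrix protein, had 343, 332 and 329 FPKM in day 10 cells, against 99.7, 98.7 and 93.9 FPKM in day 0 cells (log2 change 1.78 ± 0.13 (SE), adjusted p = 3.36e-07). The groups stood apart for both, across a wide range of levels. Timp3 (1.97), an inhibitor of metalloproteinases, and Col4a2 (1.75), a basement membrane collagen, also rose, while Mmp2 (-0.78) was the member that fell and Fn1 (-0.16) did not pass. Of 29 adhesion and junction genes 15 rose and 2 fell (median 0.50). Integrins led these, with Itgb4 (2.15), Itga5 (2.06) and Itgav (1.66), together with N-cadherin, Cdh2 (1.82), whereas E-cadherin, Cdh1, had 128 ± 3.21 FPKM at day 10, against 114 ± 7.08 FPKM at day 0 (mean ± SD, n = 3, log2 change 0.17 ± 0.14 (SE), adjusted p = 0.371). The falls were of the tight junction genes Cldn6 (-0.67) and Tjp3 (-1.15).

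Genes for growth factors and cytokines went both ways, with 15 of 26 risen and 5 fallen (median 0.72). Quantile normalization gave 13 and 8. After Csf1 came Hbegf (2.06), a ligand of the EGF receptor, Inhbb (1.83), a subunit of activin, and the neuregulin Nrg1 (1.62). The fallen members were Fgf5, Fgf17, Bmp7, Vegfa and Fgf15, with log2 changes between -1.49 and -0.40. Among ephrin and guidance genes 8 of 24 rose and 2 fell (median 0.35), against 27.7% and 16% of all genes. The ephrin ligand Efnb1 changed by 1.64, the semaphorin and VEGF receptor Nrp1 by 1.59, the ephrin receptor Epha2 by 1.32 and the semaphorin Sema6a by -1.44.

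Signalling targets gave mixed counts. Among Wnt targets 7 of 14 rose and 4 fell (median 0.29). Notum, a secreted enzyme that inactivates Wnt proteins, had 28.9, 27.02 and 27.8 FPKM in day 10 cells, against 3.14, 3.21 and 3.54 FPKM in day 0 cells (log2 change 2.90 ± 0.17 (SE), adjusted p = 3.87e-08), with no overlap. The transcription factor Sp5 (1.87), the Wnt inhibitor Apcdd1 (1.61) and the homeobox gene Cdx1 (1.49) also rose, Axin2 (-0.12) did not pass, and the fallen members were Lef1, Nkd2, Nkd1 and Tcf7. Of 18 Erk feedback and immediate early genes 6 rose and 2 fell (median 0.21), against 27.7% and 16% of all genes. Among the risen were Phlda1 (2.41), the Erk phosphatase gene Dusp5 (1.41), and the AP-1 gene Fosl1 (1.35), while the inhibitor Spry1 (-1.0) and Fos (-0.76) fell. With the 6 libraries alone in the fit, 11 rose and 3 fell, quantile normalization gave 6 and 4, and the call of Fos was lost when any library but the third of day 0 was left out. Of 13 Lif and Stat3 targets 6 rose and 2 fell, and the median was 0.34, but without the third day 10 library or the second day 0 library 3 rose. Pim2 and its relative Pim3 (-0.64) fell, while the cytokine receptor subunit gene Il6st (0.97) and the homeobox gene Gbx2 (0.71) rose. Of 11 retinoic acid genes 6 rose and 2 fell (median 0.59), and 1 fell without the first day 10 library or the first day 0 library. Stra8, a meiotic gene that responds to retinoic acid, had 6.62, 6.62 and 7.12 FPKM in day 10 cells, against 1.201, 0.905 and 0.757 FPKM in day 0 cells (log2 change 2.34 ± 0.15 (SE), adjusted p = 1.31e-07). Crabp1, which binds retinoic acid in the cytosol, had 4.2004, 3.66 and 3.8997 FPKM in day 10 cells, against 20.2, 17.4 and 20.3 FPKM in day 0 cells (log2 change -2.16 ± 0.19 (SE), adjusted p = 1.4e-06). The pair thus moved in opposite directions with no overlap, and Dhrs3 (1.46) and the receptor Rarb (1.09) rose.

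**Figure D3:**
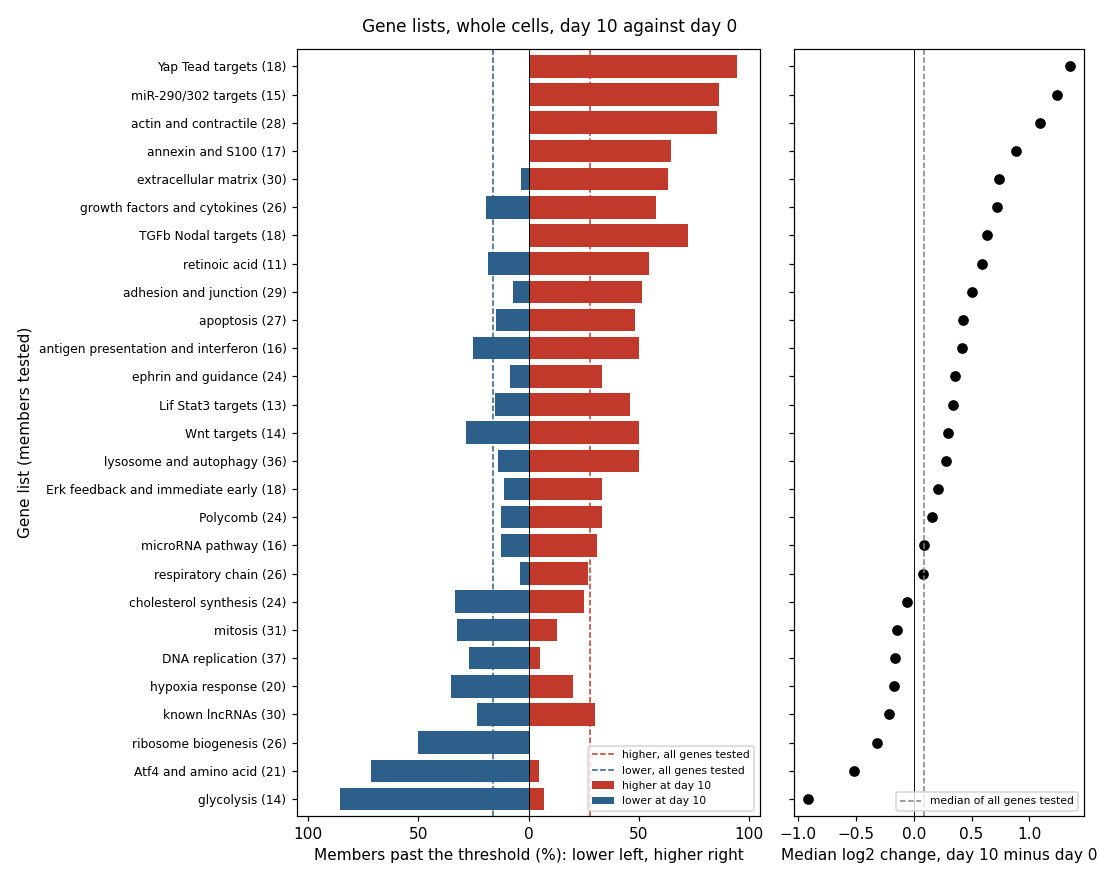
Left, share of each gene list's tested members (number in parentheses) that were higher (right of 0) or lower (left of 0) at day 10 than at day 0, with dashed lines at 27.7% and 16%, the shares over all genes tested. Right, the list's median log2 change with the median of all genes, 0.09, as a dashed line, running from 1.35 for Yap and Tead targets to -0.92 for glycolysis.

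Most glycolytic genes fell, with 1 of 14 higher and 12 lower and a median of -0.92, and quantile normalization gave 1 and 10. Of the 10 without near-identical copies, 1 was higher and 8 lower. Pfkl, the liver-type phosphofructokinase that commits sugar to glycolysis, had 27.1, 31.4 and 33.8 FPKM in day 10 cells, against 73.5, 69.9 and 84.9 FPKM in day 0 cells (log2 change -1.29 ± 0.12 (SE), adjusted p = 2.78e-06). Pgam1, a phosphoglycerate mutase, had 132, 126 and 134 FPKM in day 10 cells, against 259, 320.0 and 333 FPKM in day 0 cells (log2 change -1.21 ± 0.17 (SE), adjusted p = 8.67e-05). All day 10 values were the low ones in both. Aldoc (-1.32), an aldolase, and Pfkp (-1.16), the platelet-type phosphofructokinase, also fell, and Pfkm (0.53), the muscle type, was the member that rose. Of 20 hypoxia response genes 4 rose and 7 fell (median -0.17), and quantile normalization gave 3 and 10. Ankrd37 (-1.50), the oxygen sensor Egln3 (-1.04) and the mTOR inhibitor gene Ddit4 (-0.71) fell, and Pfkfb3 (1.31), an activator of glycolysis, rose. Atf4 and amino acid genes showed 1 of 21 higher and 15 lower (median -0.52). Among them Chac1, which degrades glutathione, changed by -1.50, the proline synthesis gene Pycr1 by -1.30 and the glutamine transporter gene Slc1a5 by -0.91, while Cth, which makes cysteine, rose by 0.85. Trib3 and Asns, both known targets of Atf4, changed by -0.52 and -0.64.

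Ribosome biogenesis genes showed 0 of 26 higher and 13 lower (median -0.32). Srm, the spermidine synthase, had 154, 154 and 162 FPKM in day 10 cells, against 252, 283 and 306 FPKM in day 0 cells (log2 change -0.83 ± 0.11 (SE), adjusted p = 6.56e-05). The groups were separate, and the nucleolar genes Nop16 (-0.75) and Bop1 (-0.51) fell too. Respiratory chain genes showed 7 of 26 higher and 1 lower, with a median of 0.08, close to that of all genes, and quantile normalization gave 8 and 3. The exception in size was Cox7c, a small subunit of cytochrome c oxidase, with 99.8, 111 and 99.3 FPKM in day 10 cells, against 359, 341 and 286 FPKM in day 0 cells (log2 change -1.66 ± 0.26 (SE), adjusted p = 0.000186), whereas its log2 change was 0.21 in the cytoplasm and 0.18 in the nucleus. Cholesterol synthesis genes split into 6 of 24 higher and 8 lower (median -0.06), with 3 and 11 after quantile normalization, and 5 each without the first or the third day 10 library or the first day 0 library, and 6 and 5 without the third day 0 library. Ebp, a sterol isomerase, rose by 0.87, while the last enzyme of the pathway, Dhcr7, changed by -0.87. Lysosome and autophagy genes showed 18 of 36 higher and 5 lower (median 0.28), among them the membrane protein Lamp2 (1.00), progranulin, Grn (0.87), the peptidase Tpp1 (0.82) and the autophagy receptor Sqstm1 (0.77), and quantile normalization gave 14 and 9.

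The cell cycle lists had small median changes, with more members lower than higher, against 27.7% higher and 16% lower over all genes. Of 37 DNA replication genes 2 were higher and 10 lower (median -0.16), with 6 lower members without the second day 10 library, 17 with median-of-ratios scaling and 18 with the 6 libraries alone. The higher ones, Rfc3 (0.37) and Rrm1 (0.35), both lost their calls with quantile normalization, without the libraries labelled day 12, and without any 1 library other than the first of day 0, where 1 was higher. Orc1, a subunit of the origin recognition complex, changed by -0.58 and the clamp loader subunit Rfc2 by -0.44. Of 31 mitosis genes 4 were higher and 10 lower (median -0.14), and quantile normalization gave 2 and 12, with the kinesin Kif23 (0.87) higher and the centromeric histone Cenpa (-0.86) lower. Apoptosis genes showed 13 of 27 higher and 4 lower (median 0.42), with quantile normalization at 12 and 7. Casp2, a caspase that is also in the list of miR-290/miR-302 targets, had 7.57, 7.35 and 7.83 FPKM in day 10 cells, against 2.98, 2.402 and 2.62 FPKM in day 0 cells (log2 change 1.36 ± 0.10 (SE), adjusted p = 4.86e-07), with every day 10 library higher. The death receptor gene Tnfrsf10b (1.17) and Casp8 (1.16) rose and Bmf (-1.17), of the Bcl2 family, fell. Of 24 Polycomb genes 8 rose and 3 fell (median 0.16), against 27.7% and 16% of all genes. Both scaling alternatives gave 5 and 4, and 5 rose without the second day 10 library. The chromodomain subunit Cbx8 (1.34) rose, while the methyltransferase Ezh2 (-0.18) did not pass. Of 16 antigen presentation and interferon genes 8 rose and 4 fell (median 0.42), with the peptide loading genes Tapbp (1.89) and Tap1 (1.19) higher and the interferon-induced Bst2 (-1.43) and Ifitm1 (-1.22) lower.

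Pluripotency markers stayed high. Summed over 11 markers the level was 2489 to 2690 FPKM at day 10, against 2670 to 3296 FPKM at day 0, and none was at 0. Pou5f1 had 385 ± 20.1 FPKM at day 10, against 332 ± 15.8 FPKM at day 0 (mean ± SD, n = 3, log2 change 0.21 ± 0.09 (SE), adjusted p = 0.0699), and Nanog had 196 ± 6.67 FPKM, against 211 ± 17.97 FPKM (log2 change -0.11 ± 0.14 (SE), adjusted p = 0.567). Neither passed the test, whereas Lin28a, Utf1 (-0.47) and Sox2 (-0.38) fell. In all, 1 of the 11 was higher and 3 were lower (median -0.11). The higher one, Zfp42 (0.33), lost its call with quantile normalization and without the first or second day 10 library or the second or the third day 0 library. Of 9 tested trophoblast and simple epithelium markers 7 rose and 1 fell. The 10 measured summed to 541 to 586 FPKM at day 10, against 156 to 205.5 FPKM at day 0, a large part of it from Krt8. Krt8, a keratin of simple epithelia, had 271, 270.2 and 246 FPKM in day 10 cells, against 56.1, 78.1 and 85.1 FPKM in day 0 cells (log2 change 1.86 ± 0.15 (SE), adjusted p = 8.58e-07), clear of day 0. Its partner Krt18 (1.71) and the transcription factors Gata3 (1.56) and Hand1 (1.46) rose, but Elf5, a defining gene of trophoblast stem cells, was at 0.0985 FPKM at day 10, against 0.0224 FPKM at day 0.

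Smooth muscle markers summed to 331 to 337 FPKM at day 10, against 55.7 to 75.7 FPKM at day 0, through Acta2 and Tagln (2.04), while the defining genes Myh11 and Myocd had 0.233 and 0.0775 FPKM at day 10, against 0.03798 and 0.0353 FPKM at day 0. Of 5 tested mesothelium markers 4 rose, and the 6 measured summed to 67.4 to 74.1 FPKM at day 10, against 24.7 to 32.9 FPKM at day 0, with Wt1 (1.22) next to Msln. Fibroblast markers summed to 10.3 to 11.5 FPKM at day 10, against 10.1 to 10.9 FPKM at day 0, with Fap listed at 0 in both groups and Lum at 0 at day 0. Of these, Thy1 (-1.83) fell and Dcn (1.67) and Col1a1 (1.29) rose. Neuroectoderm markers summed to 92.1 to 94.0 FPKM, against 66.6 to 79.5 FPKM, with Sox1 at 6.71, 5.58 and 6.505 FPKM in day 10 cells, against 0.834, 1.15 and 0.891 FPKM in day 0 cells (log2 change 2.22 ± 0.15 (SE), adjusted p = 1.82e-07), higher in every day 10 library. Of 5 tested neuroectoderm markers 3 rose, and 1 after quantile normalization. Primitive endoderm markers (10.99 to 13.998 FPKM at day 10, against 11.3 to 13.8 FPKM at day 0) and mesoderm markers (2.43 to 3.63 FPKM, against 1.64 to 2.06 FPKM) were low in both groups. None of the 5 measured markers of the 2-cell stage reached the filter, at summed levels of 0.941 to 1.38 FPKM at day 10, against 0.0482 to 0.203 FPKM at day 0. With no filter 4 were tested and 3 were higher, and in the fractions the 3 tested, Zscan4c, Zscan4d and Zscan4f, which have near-identical copies, were higher at day 12 in both the cytoplasm and the nucleus. The part of other cell types in the gene groups above was not tested.

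Changes of lncRNA genes spread over several annotated classes. Of 586 antisense genes 87 rose and 58 fell, of intergenic genes (lincRNAs) 57 (18.9%) rose and 44 (14.6%) fell, and of 189 processed transcripts 28 rose and 22 fell. Of 27 bidirectional promoter lncRNAs, which start beside a coding gene on the other strand, 0 rose and 3 fell. The median level of tested lncRNA genes was 1.59 FPKM at day 10, against 1.52 FPKM at day 0, and their median SE was 0.25, against 0.15 for protein-coding genes, so smaller changes could be detected in coding genes.

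The 8 lncRNA genes with the largest rises were mostly low at day 0. Gm16302, a lincRNA (chr9:14845613-14847835, plus strand), had 13.1, 23.1 and 16.9 FPKM in day 10 cells, against 0.1104, 0.1303 and 0 FPKM in day 0 cells (log2 change 4.94 ± 0.37 (SE), adjusted p = 3.8e-07). Gm17146, an antisense gene (chr3:88722090-88722670, plus strand), had 5.28, 6.41 and 8.83 FPKM in day 10 cells, against 0, 0.118 and 0.229 FPKM in day 0 cells (log2 change 3.56 ± 0.31 (SE), adjusted p = 1.41e-06). A230004M16Rik, a processed transcript that shares exonic bases with another gene, had 7.96, 9.32 and 8.398 FPKM in day 10 cells, against 0.919, 1.02 and 0.811 FPKM in day 0 cells (log2 change 2.68 ± 0.35 (SE), adjusted p = 4.45e-05). No day 0 value of these 3 genes reached the lowest day 10 value. Notumos (chr11:120659157-120661815, plus strand) had 16.2, 16.3 and 15.4 FPKM in day 10 cells, against 1.81, 2.22 and 1.68 FPKM in day 0 cells (log2 change 2.78 ± 0.25 (SE), adjusted p = 2.13e-06), and Myadml2os, beside it, had 15.3, 18.3 and 16.6 FPKM in day 10 cells, against 2.496, 1.899 and 2.15 FPKM in day 0 cells (log2 change 2.69 ± 0.23 (SE), adjusted p = 1.18e-06). Both overlap exons of Notum on the other strand, which itself changed by 2.90. 1700071M16Rik (2.36) overlaps an exon of Pla2g7 in the same way, Gm2245 (2.48) overlaps Fyb, and Gm6410 (2.18) has looser matches to 12 other genes.

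Falls were led by Gm13075 (chr4:141398829-141411191, plus strand), an antisense gene, with 0.748, 0.684 and 0.7502 FPKM in day 10 cells, against 9.15, 6.88 and 1.84 FPKM in day 0 cells (log2 change -2.16 ± 0.38 (SE), adjusted p = 0.000514). Its day 0 libraries differed several-fold among themselves. Platr genes, named for their expression in pluripotent cells, made up 3 of the 8. Platr3 (chr2:135648907-135652063, plus strand) had 6.13, 4.45 and 4.55 FPKM in day 10 cells, against 19.6, 20.5 and 17.6 FPKM in day 0 cells (log2 change -1.84 ± 0.17 (SE), adjusted p = 2.32e-06). Platr14 (chr2:104559163-104571429, plus strand) had 12.4, 10.4 and 9.21 FPKM in day 10 cells, against 52.05, 33.4 and 33.5 FPKM in day 0 cells (log2 change -1.82 ± 0.16 (SE), adjusted p = 1.45e-06). Platr4 (chr3:41484024-41493192, minus strand) had 3.27, 2.603 and 3.33 FPKM in day 10 cells, against 11.96, 10.1 and 8.08 FPKM in day 0 cells (log2 change -1.55 ± 0.16 (SE), adjusted p = 4.48e-06). None of them shares exonic bases with another gene, and all day 10 values were below all day 0 values. The others were 2810408I11Rik (-1.77), Gm2694 (-1.76), Gm11527 (-1.70) and Gm15996 (-1.68).

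**Figure D4:**
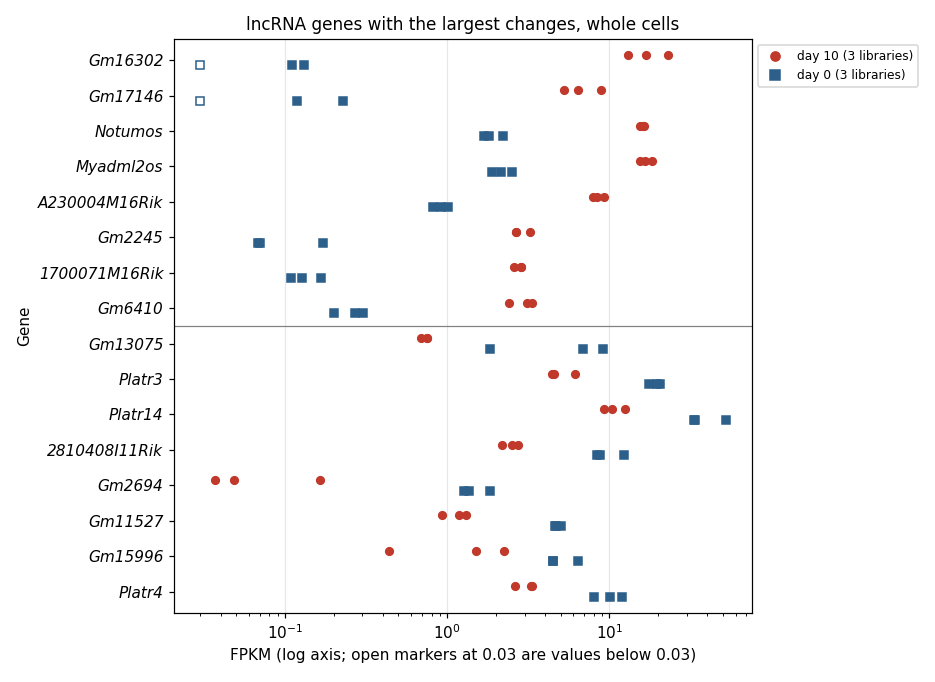
FPKM (log axis) of the 8 lncRNA genes with the largest rise (above the line) and the 8 with the largest fall (below it) in each of the 3 day 10 libraries (circles) and the 3 day 0 libraries (squares). Gm13075 spans 0.684 to 0.7502 FPKM at day 10, against 1.84 to 9.15 FPKM at day 0.

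Many lncRNA genes that changed share exonic bases with a coding gene that changed the same way. Of the 114 risen lncRNA genes with such an overlap, 102 (89.5%) had a partner that rose, against 231 (30.9%) of the partners of all 748 overlapping lncRNA genes tested. Of the 72 fallen ones, 40 (55.6%) had a partner that fell, against 122 (16.3%). The other 374 lncRNA genes overlap no exon of a tested coding gene, though some share exonic bases with other genes. Their nearest tested coding gene rose beside 20 of 59 risen ones (33.9%), against 111 of 374 (29.7%). It fell beside 18 of 60 fallen ones (30%), against 66 of 374 (17.6%). The library kit kept strand, but whether the counting used it is not given in the sources used here, so reads of an overlapping pair cannot be told apart. Of the 284 lncRNA genes that share no exonic base with any gene, 41 rose and 44 fell.

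Of 30 tested lncRNAs on the list of known ones, 9 rose and 7 fell (median -0.21), quantile normalization gave 8 and 12, and 4 fell without the first day 0 library. Neat1, the scaffold of paraspeckles, had 6.64, 5.93 and 5.56 FPKM in day 10 cells, against 3.08, 1.41 and 1.54 FPKM in day 0 cells (log2 change 1.44 ± 0.21 (SE), adjusted p = 0.000121). H19, an imprinted lncRNA, had 102, 96.8 and 99.8 FPKM in day 10 cells, against 53.4, 71.2 and 70.9 FPKM in day 0 cells (log2 change 0.62 ± 0.13 (SE), adjusted p = 0.00161). Halr1, which lies beside the Hoxa cluster, had 10.4, 7.91 and 10.2 FPKM in day 10 cells, against 2.62, 2.28 and 2.57 FPKM in day 0 cells (log2 change 1.73 ± 0.30 (SE), adjusted p = 0.000487). These 3 were higher in every day 10 library, as were Gas5 (1.92), a host of small nucleolar RNAs, Hotairm1 (1.20), the microRNA host genes Mir22hg (0.92) and Mir124a-1hg (0.78), and 1700020I14Rik (0.49). Tug1 (0.31) passed with overlapping groups and lost its call under both scaling alternatives. Next to the 3 Platr genes above, Platr22 (-0.94) fell. Snhg5 (-0.66), Zfas1 (-0.50) and Epb41l4aos (-0.90) were lower as well, each with a call that ended without 1 library (without the first day 0 library, adjusted p = 0.05001 for Snhg5, 0.236 for Zfas1 and 0.112 for Epb41l4aos). The call of Epb41l4aos also ended without the first or the second day 10 library, and that of Zfas1 without any library but the third of day 0. Malat1, of nuclear speckles, had 54.98, 40.7 and 32.6 FPKM in day 10 cells, against 70.4, 23.5 and 25.8 FPKM in day 0 cells (log2 change 0.25 ± 0.42 (SE), adjusted p = 0.665), so its groups overlapped widely. The others that did not pass were Mir17hg (-0.61), Firre (-0.73), Platr20 (-0.44), Crnde (-0.38), Meg3 (-0.27), Snhg3 (-0.27), Snhg12 (-0.25), Rian (-0.22), Mirg (-0.21), Ftx (0.01), Pvt1 (0.03), Lncenc1 (0.06) and Trp53cor1 (0.32).

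The other whole cell days share the day 0 libraries, so their values are given side by side with no overlap count. For the 10 protein-coding genes with the largest rise, log2 changes against day 0 had a median of 0.81 at day 4 and 2.58 at day 8, and ran from 3.18 to 4.21 at day 10, and for the 10 with the largest fall the medians were -0.39 and -1.34. Dicer1 was low from the first, at -3.17 at day 4 and -2.93 at day 8. In the libraries labelled day 12, the same rises had a median of 0.54 and the same falls -0.22. Some genes had a similar difference from day 0 on every other day. Gm16302 was at 4.84, 4.89 and 4.94 on days 4, 8 and 10 and at 5.76 in the libraries labelled day 12, where Dicer1 was near its day 0 level. Gas5 was at 1.92, 1.72, 1.92 and 2.15, Gm2245 at 2.31, 2.23, 2.48 and 2.82, and Gm13075 at -1.85, -1.91, -2.16 and -1.48. For these genes the day 0 libraries are the ones that stand apart from all later whole cell libraries, as they also do in depth. A link with depth was not tested.

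**Figure D5:**
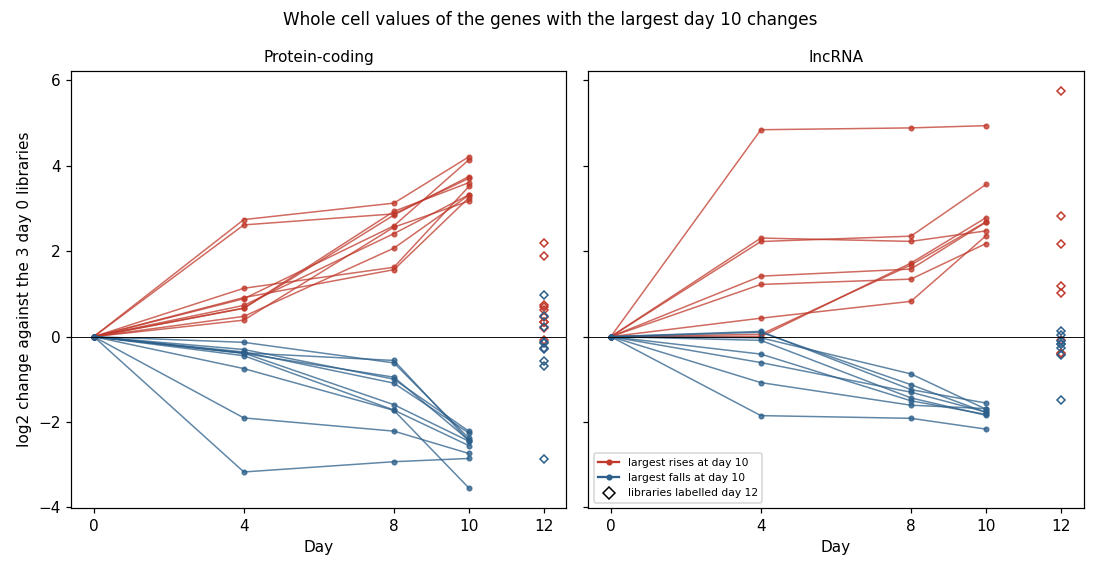
Log2 change against the 3 day 0 libraries on days 4, 8 and 10 for the genes with the largest rise (red) and fall (blue) at day 10, protein-coding left and lncRNA right, with the libraries labelled day 12 as open diamonds. Most lines move away from 0 between day 4 and day 10 and most diamonds lie nearer 0, while the top lncRNA line, Gm16302, is near 4.84 at day 4 and 4.94 at day 10.

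Nuclear and cytoplasmic fractions of day 12 and day 0 are other libraries, fitted apart, and compare day 12 rather than day 10 with day 0. Nothing says that they came from other cultures than the whole cell libraries. Over all genes 16% were higher and 16.6% lower in the cytoplasm, and 15.1% and 21.6% in the nucleus. For the protein-coding genes tested here the shares were 19.2% and 19.9% in the cytoplasm, and 16.4% and 23.4% in the nucleus. For the lncRNA genes they were 12.1% and 13.6%, and 12.9% and 21.2%. Of 3536 risen protein-coding genes that were tested in the fractions, 1991 (56.3%) were higher and 18 (0.509%) lower in the cytoplasm, and 1394 (39.4%) were higher and 147 (4.16%) lower in the nucleus. Of 2085 fallen ones, 1432 (68.7%) were lower in the cytoplasm and 1394 (66.9%) in the nucleus. From the side of the cytoplasm, those 1991 were part of 2344 higher protein-coding genes and those 1432 of 2439 lower ones. Of 170 risen lncRNA genes, 86 (50.6%) were higher in the cytoplasm and 63 (37.1%) in the nucleus, and of 131 fallen ones 68 (51.9%) and 79 (60.3%) were lower.

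Among the named protein-coding rises, 10 of 10 were higher in the cytoplasm and 8 in the nucleus, where Acta2 (-0.82) was lower and Thbs1 (0.62) did not pass. Msln changed by 3.80 in the cytoplasm and 3.25 in the nucleus, and Pla2g7 by 3.93 and 2.86. Of the actin and contractile genes 16 of 28 were higher and 1 lower in the cytoplasm, but 3 were higher and 5 lower in the nucleus. Of the Yap and Tead targets 13 of 18 were higher and 0 lower in the cytoplasm, and 4 were higher and 2 lower in the nucleus. The annexin and S100 genes had 6 of 17 higher and 4 lower in the cytoplasm, against 2 and 4 in the nucleus. The Lif and Stat3 targets had 2 of 13 higher and 6 lower in the cytoplasm, and 4 and 5 in the nucleus. Glycolysis genes were lower in both, 9 of 14 each. Among lncRNAs, Platr3, Platr14 and Platr4 were lower in both fractions, with cytoplasmic changes of -2.08, -2.20 and -2.23 in that order. Notumos rose by 3.54 and 4.11. Gm16302, the largest rise in whole cells, was at -0.12 in the cytoplasm and 0.88 in the nucleus and passed in neither, and Gm2245 was at 0.20 and 0.69.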

How the data were processed

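Gene levels are FPKM, which the authors deposited per gene and library. TopHat2 2.0.9, Cufflinks 1.3.0 and the mm9 build are named in the submitters' processing notes, with no role or order. The sources used here give no annotation, strand setting, read counts or rule for multi-mapped reads, so depth was compared only in relative terms. FPKM divides by length and by the total of each library, so a rise of abundant genes lowers all others.

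The fit was limma 3.58.1 in R 4.3.3 on log2(FPKM + 0.5) over 15 whole cell libraries with 1 mean per day, an intensity trend and Benjamini-Hochberg adjustment over the 15991 genes whose mean reached 0.5 FPKM in 1 or more groups, at 0.05. A log2 change understates that of low genes because of the added 0.5 FPKM. A fit over the 12 fraction libraries was made apart. The whole cell fit was also run on simulated data with 15991 genes, few of them changed and each with 1 spread for all groups. It recovered 80% of changes of size 1 and 95% of size 2 on the log2 scale, with 7 false among 182 calls. In the real data the groups differed in depth and 43.7% of genes were called, so these figures do not carry over to them.

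Gene classes and coordinates (GRCm38) came from GENCODE M21 by gene ID, matched for 36253 of 38123 models. A near-identical copy was a match of at least 95% identity over 50% of the longest transcript by minimap2 2.31-r1302. Named were the 10 protein-coding genes (at least 2 FPKM in 1 group) and 8 lncRNA genes (at least 1 FPKM) with the largest rise and fall among those called, with groups that did not overlap, and without copies. Predicted gene models were left out of the protein-coding ones. The 4 members of each list with the largest changes, and all tested members of the lncRNA list, were named likewise, and further members were named after their values were seen. A few genes that this rule picks are not reported here. The members and lists were chosen with earlier results of these data known. Alternatives were other pseudocounts, filters and scalings, a replicate block, the 6 libraries alone, the fit without the libraries labelled day 12, and each library left out in turn.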

Additional observations from a re-analysis of the deposited data

Results flagged for a closer look

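For some named genes every library moved one way in whole cells at day 10 and the opposite way in a fraction at day 12, relative to the day 0 libraries of the same kind. The difference between these contrasts was not tested. In the cytoplasm the log2 change was -0.68 for Gas5, which passed the test, and -0.51 for Cnn1 and -0.10 for Ndufb8, which did not, and in whole cells at day 10 all 3 were higher. In the nucleus it was -0.82 for Acta2, -0.56 for Anxa5, -1.22 for Cnn1, -1.87 for Col1a1, -1.21 for Gas5 and -1.31 for Krt19, and these 6 passed, again against higher levels in whole cells at day 10.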

How the results depend on the processing

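Quantile normalization, which forces all libraries to 1 distribution, moved the counts of lower genes to 4150 of all genes and 3493 protein-coding genes, and the lncRNA counts to 111 higher and 255 lower. Higher genes then made up, of the called ones, 44.4% of all genes, 42.9% of protein-coding genes and 30.3% of lncRNA genes, against 63.4%, 63.0% and 56.7% as deposited. With 1 library left out, 3784 to 3897 genes were higher and 1938 to 2192 lower, with 3032 to 3158 and 1606 to 1793 protein-coding genes, 137 to 160 and 86 to 108 lncRNA genes (86 without the first day 0 library), and 230 to 238 and 109 to 120 distinct list members. Same-numbered libraries of the groups had correlations of 0.0960, 0.00709 and 0.0741, after each group's mean was taken off. Pairs with other numbers had -0.0946 to 0.0220. Whether same-numbered libraries share a culture or batch is not given, and these few values cannot decide it. With the replicate block 4247 genes were higher and 2452 lower. The difference in median log2 change with and without a miR-290/miR-302 site, 0.27, was 0.19 for 7-mers, 0.59 and 0.14 in the shortest and longest of 3 classes of 3′UTRs, 0.30 and 0.24 with pseudocounts of 0.1 and 1, and 0.20 with no filter. The difference between the longest and shortest of 5 classes of transcripts, 0.30, was 0.15 with no filter. The cause of these shifts was not tested. Some lncRNAs that did not pass changed sign. With median-of-ratios scaling Ftx was at -0.0282, Lncenc1 at -0.00784 and Pvt1 at -0.0196, and with quantile normalization they were at -0.24, -0.00985 and -0.24. With 1 library left out, Ftx ranged over -0.0469 to 0.0796, Lncenc1 over -0.0590 to 0.15, Malat1 over -0.0280 to 0.75, Meg3 over -0.45 to 0.0326, Pvt1 over -0.0725 to 0.18 and Snhg3 over -0.58 to 0.0286. With lower depth at day 10, small changes of low genes are the least certain.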
